A study of Mus musculus with 5 samples.

Results

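The regions described here are YAP peaks that overlapped a TEAD peak and an RNA polymerase II (RNAPol2) peak and no Myc peak, hereafter YTP peaks. They were chosen by overlap alone: each shares at least 1 bp with a peak of the TEAD list and with a peak of the RNAPol2 list, and none with a peak of the Myc list. There were 2079 of them among 10293 YAP peaks, or 20.2% (95% Wilson interval 19.4 to 21.0). They made up 32.9% of the 6315 YAP-TEAD peaks without Myc and 43.3% of the 4802 YAP-TEAD peaks with RNAPol2. The number depends on what counts as present: it was 33.5% of YAP peaks when the stronger 50% of Myc peaks alone were used, and 12.8% with the stronger 50% of RNAPol2 peaks. The rule fixes the presence of YAP, TEAD and RNAPol2 peaks and the absence of a called Myc peak, so these are not findings, and heights at these peaks are given as descriptions with no test.

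YAP is a coactivator that has no DNA-binding domain of its own. It is held in the cytoplasm by the kinases of the Hippo pathway and, once in the nucleus, reaches chromatin mainly through the TEAD family of DNA-binding proteins. Many YAP-TEAD sites in fibroblasts and other adherent cells are enhancers, and RNAPol2 can be crosslinked both at promoters, where it initiates and pauses, and at active enhancers, where it transcribes short unstable RNAs. Myc binds DNA as a dimer with Max and is found mostly at active promoters.

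The chromatin came from 3T9 cells of the 3T9MycER genotype, which are immortalized mouse embryonic fibroblasts, and was profiled by chromatin immunoprecipitation and sequencing (ChIP-seq) with antibodies against YAP, TEAD, RNAPol2 and Myc, 1 sample each. In all 4 samples MycER, a constitutively expressed Myc protein joined to a hormone-binding domain, was activated with 400 nM 4-hydroxytamoxifen (OHT), and the mutant YAPS127A was induced with 2 µg/ml doxycycline from a vector with which the cells had been infected and selected. The cells were quiescent and confluent per the series' design text. No sample with only one of these treatments, and no untreated sample, was used here, so nothing below compares conditions, and the input sample has no peak list in this work. Fixation for YAP used a second crosslinker before formaldehyde, and that for the other antibodies did not.

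The ChIP libraries held between 20441605 tags (Myc, the shallowest) and 38345189 tags (RNAPol2), against 1 control library of 60189064 tags in all 4 lists. The sources used here do not say whether that control is the deposited input sample, whose antibody label names an IgG. Every fold enrichment whose background lay above the floor of its list rests on that control. Because each antibody has 1 sample, no replicate spread could be measured, and no p-values were computed. The Wilson intervals cover counting error only and treat peaks as independent, and PCR copies cannot be told from separate molecules in libraries without molecular identifiers. Heights are given as fold enrichment over control, that is ChIP pileup at the summit divided by the background the caller estimated there, and were compared only within 1 list. The fibroblast label was not checked against marker genes, because peaks were not assigned to genes: positions are in build mm9 and the gene table used here is of another build. For the same reason regions are given by coordinates, without sequence or gene names.

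YTP peaks were set beside the 2 classes of YAP peaks most like them. These were 2723 YAP-TEAD-RNAPol2 peaks with Myc (YMTP peaks, 26.5% of YAP peaks) and 4236 YAP-TEAD peaks with neither RNAPol2 nor Myc (YT peaks, 41.2%). Of all YAP peaks, 48% overlapped RNAPol2. The other YAP peaks were 388 YAP-TEAD-Myc peaks without RNAPol2 and 867 YAP peaks without TEAD.

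YAP and TEAD were about as high at YTP peaks as at YMTP peaks, and the RNAPol2 median over all RNAPol2 widths was much lower there. The median YAP fold enrichment was 6.86 at YTP peaks, with quartiles of 5.58 and 9.36, against 6.93 at YMTP peaks and 6.24 at YT peaks. The ratio of the YTP to the YT median was 1.10. An order-statistic 95% interval of the YTP median, over the YT median taken as fixed, ran from 1.07 to 1.12, and the ratio was 1.17 for pileup.

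TEAD, the DNA-binding partner, showed a wider gap to the peaks without polymerase. The median TEAD fold enrichment was 19.09 at YTP peaks, 18.45 at YMTP peaks and 15.6 at YT peaks. The YTP to YT ratio was 1.22 (interval as above, 1.18 to 1.26), and 1.29 for pileup. Set against the whole TEAD list, whose median was 7.64, 92.9% of YTP peaks had a TEAD peak above the median and 51.5% one above the 90th percentile of 18.57.

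RNAPol2 at YTP peaks was modest. Its median fold enrichment was 6.47 at YTP peaks against 14.4 at YMTP peaks, a ratio of 0.448 (0.435 to 0.459). The lower quartile at YMTP peaks, 7.74, lay above the YTP median. Taken by RNAPol2 width, the gap was not the same throughout. The YTP and YMTP medians were 4.75 against 4.81 under 400 bp and 40.6 against 40.81 at 5000 bp or more. Between these they were 6.365 against 8.01 (400 to under 1000 bp) and 12.9 against 21.02 (1000 to under 5000 bp). The part of RNAPol2 width in the pooled gap was not tested. In the whole RNAPol2 list the median was 5.57, so that the polymerase peaks of this class were close to the list's typical ones: 62.9% lay above the list median and 9.43% above its 90th percentile of 20.98.

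**Figure D1:**
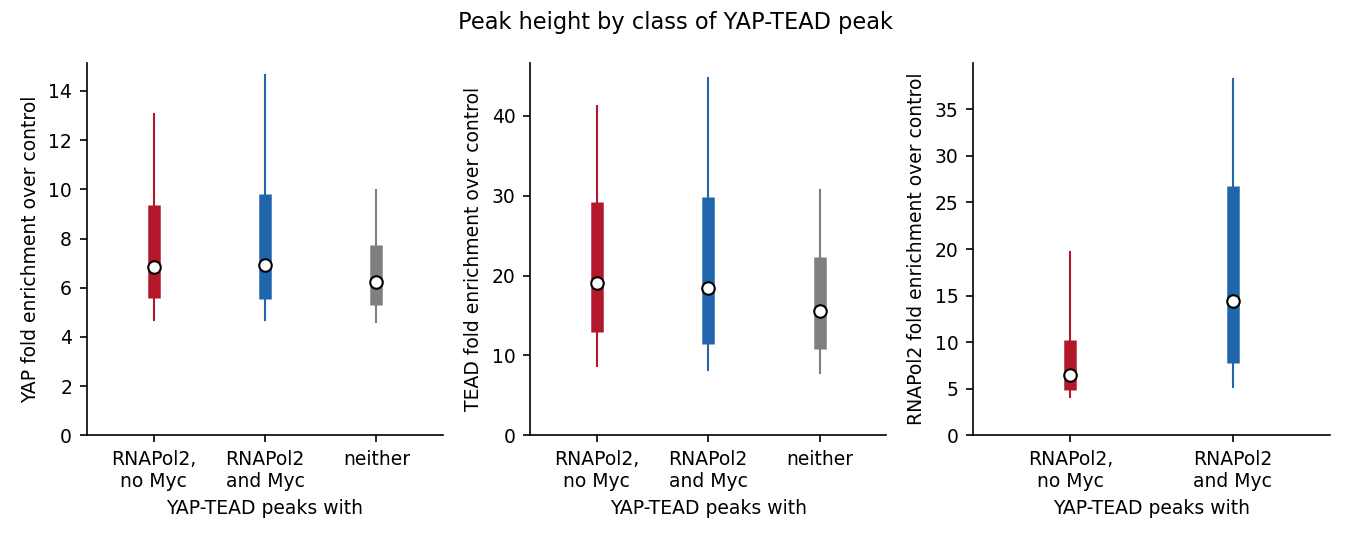
Fold enrichment over control of YAP, TEAD and RNAPol2 (vertical axes, which differ between panels) at YAP-TEAD peaks with RNAPol2 and no Myc, with RNAPol2 and Myc, and with neither (horizontal axes); white points are medians, thick bars span the quartiles and thin lines the 10th to 90th percentiles. YAP medians are 6.86, 6.93 and 6.24, TEAD medians 19.09, 18.45 and 15.6, and the RNAPol2 median is 6.47 without Myc against 14.4 with it.

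YTP peaks were wider than YT peaks and narrower than YMTP peaks. YAP peaks had a median width of 361 bp at YTP peaks, 395 bp at YMTP peaks and 294.5 bp at YT peaks. The matched TEAD peaks were 707, 816 and 558 bp wide in the same classes. The control level, computed as pileup over fold enrichment, was a median of 1.21 times the lowest level of the YAP list at YTP peaks, 1.21 times at YMTP peaks and 1.09 times at YT peaks. Its part in the height differences was not tested.

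Polymerase was found more often at the highest YAP peaks. Among YAP-TEAD peaks without Myc, the share with RNAPol2 was 54.0% in the highest decile of YAP fold enrichment (50.1 to 57.8), 41.7% in the ninth and 35.9% in the eighth. In the lowest decile it was 29.0% (25.6 to 32.6), and over the lower 7 deciles it stayed between 24.4% and 30.9% with no order. The higher shares were thus those of the deciles from a fold of 7.72 upwards.

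Wider peaks have more room for a 1 bp overlap, and the median YAP width was 474 bp in the highest decile and 254 bp in the lowest. When RNAPol2 had to cover the YAP summit itself, a criterion chosen after seeing the data that does not depend on the width of the YAP peak, the shares were 48.3% (44.4 to 52.2) in the highest decile and 25.8% (22.5 to 29.3) in the lowest. By deciles of YAP pileup they were 58.5% and 24.2%, and without chromosome 15 they were 53.6% and 31.5%. By TEAD fold enrichment the picture was alike, with RNAPol2 at 54.4% of peaks in the highest decile (50.5 to 58.3) and 26.6% in the lowest (23.3 to 30.2).

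**Figure D2:**
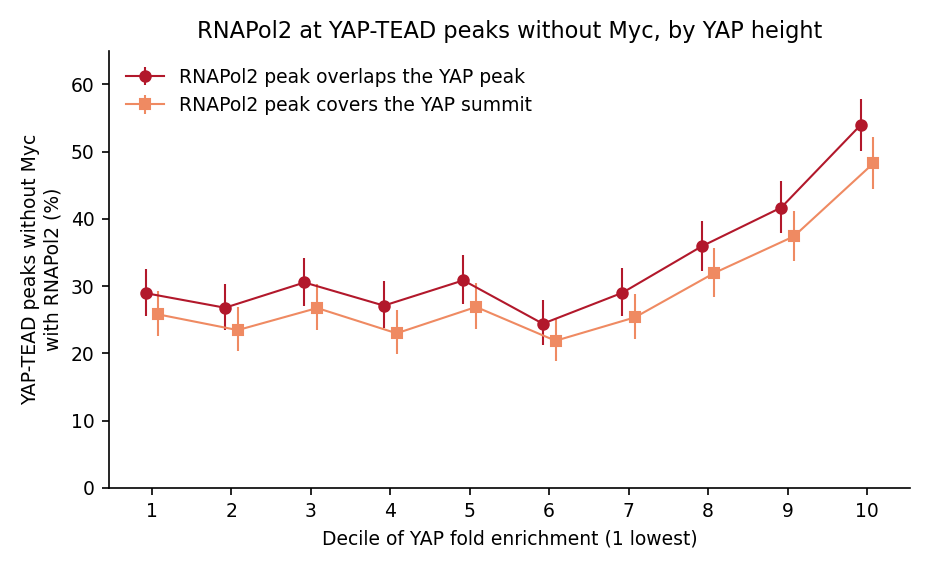
Percentage of YAP-TEAD peaks without Myc that held an RNAPol2 peak (vertical axis) by decile of YAP fold enrichment (horizontal axis, 1 the lowest), with 95% Wilson intervals; circles count RNAPol2 peaks that overlap the YAP peak and squares those that cover its summit. Both series are flat over the lower 7 deciles and reach 54.0% and 48.3% in the highest.

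Over all YTP peaks pooled, YAP height went with TEAD height. Across the 2079 YTP peaks YAP and TEAD fold enrichment had a Spearman's rho of 0.68, while rho was 0.00 for YAP and RNAPol2 and 0.02 for TEAD and RNAPol2. For pileup the values were 0.69 for YAP and TEAD and -0.01 for YAP and RNAPol2. These points are peaks of single libraries that share 1 control, and neighbouring peaks are not independent, so the values are descriptions. The pooled values mix peaks whose RNAPol2 peak holds Myc with peaks whose RNAPol2 peak does not, which differ in the medians of both YAP and RNAPol2. In the 1766 without Myc rho was 0.71 for YAP and TEAD, 0.13 for YAP and RNAPol2 and 0.12 for TEAD and RNAPol2. In the 313 with Myc the values were 0.42, 0.05 and -0.04 in the same order. In YMTP peaks rho was 0.70 for YAP and TEAD and -0.10 for YAP and RNAPol2, and in YT peaks rho for YAP and TEAD was 0.58.

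**Figure D3:**
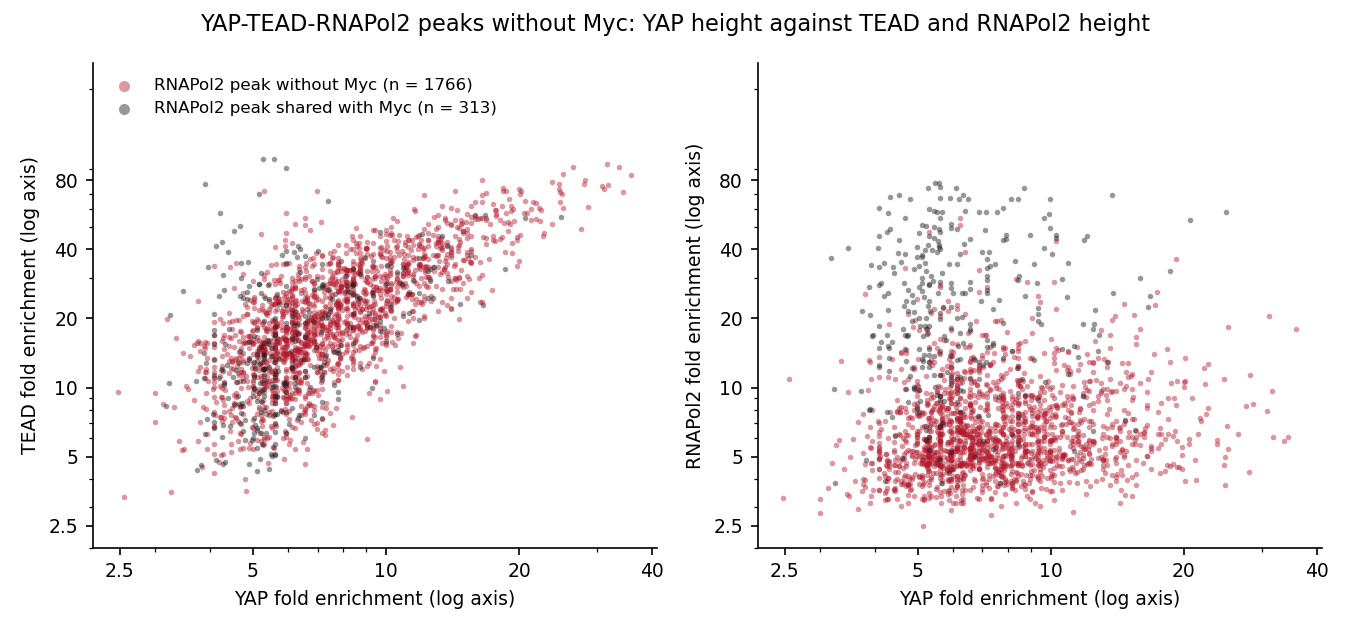
Each point is 1 YAP-TEAD-RNAPol2 peak without Myc; YAP fold enrichment (horizontal axes) is plotted against TEAD fold enrichment (left) and RNAPol2 fold enrichment (right), on log axes. Red points are the 1766 peaks whose RNAPol2 peak holds no Myc peak and black points the 313 whose RNAPol2 peak does; over red and black points pooled rho with YAP is 0.68 for TEAD and 0.00 for RNAPol2, and the black points have the higher RNAPol2 folds (median 21.8 against 5.93 for the red ones).

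Summits placed YAP on TEAD, and RNAPol2 around both. At YTP peaks the YAP summit lay a median of 40 bp from the TEAD summit, and 77.4% lay within 100 bp (75.6 to 79.2). Inside the TEAD peak, which the rule requires the YAP peak to overlap, fell 98.2% of the YAP summits. The median distance was 52 bp at YMTP peaks and 41 bp at YT peaks, where 69.3% and 81.3% lay within 100 bp. Polymerase summits were more spread: the median distance to the YAP summit was 144 bp at YTP peaks and 185 bp at YMTP peaks.

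The YAP summit lay inside the RNAPol2 peak at 88.0% of YTP peaks (86.5 to 89.3) and at 95.5% of YMTP peaks (94.6 to 96.2). Both classes require overlap with an RNAPol2 peak, and a wider RNAPol2 peak leaves more room for the summit, so these shares follow in part from both. Within 100 bp of each other were 36.4% of the YAP and RNAPol2 summits at YTP peaks and 27.0% at YMTP peaks. Since RNAPol2 peaks differ in width between the classes, the distance was also taken over RNAPol2 peaks under 1000 bp alone. There the shares were 44.6% (42.1 to 47.1) and 39.4% (36.5 to 42.4). These intervals overlap slightly, which does not measure the difference between the classes, and that difference was not tested.

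**Figure D4:**
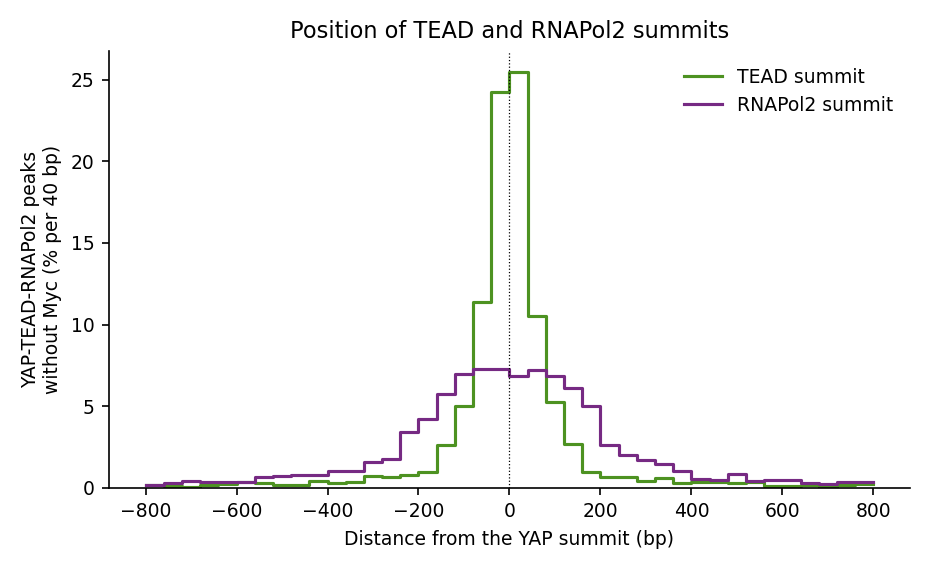
Distance from the YAP summit to the TEAD summit (green) and the RNAPol2 summit (purple) at the 2079 YAP-TEAD-RNAPol2 peaks without Myc (horizontal axis, bp, in bins of 40 bp), as the percentage of peaks per bin (vertical axis). TEAD summits gather at the YAP summit, with a median distance of 40 bp, and RNAPol2 summits lie around it on both sides, with a median of 144 bp; 23 TEAD and 192 RNAPol2 summits beyond 800 bp are not drawn.

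The polymerase peaks under YTP peaks were mostly narrow. Their median width was 602 bp, against 1240 bp under YMTP peaks and 543 bp in the whole RNAPol2 list. Under 400 bp were 26.4% of them, against 6.98% at YMTP peaks, and a further 45.8% were from 400 to under 1000 bp wide, against 31.0%. At 102 YTP peaks, or 4.91%, the RNAPol2 peak was 5000 bp or wider, against 6.79% of YMTP peaks. Such peaks made up 1.53% of the RNAPol2 list, a share that counts RNAPol2 peaks and not YAP peaks. A wide RNAPol2 peak can hold several YTP peaks and has more room to overlap any YAP peak, so that share is not a like one.

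Width and height of RNAPol2 went together at YTP peaks (rho 0.73), and the narrowest class had the lowest RNAPol2 median. YAP medians were close to each other in the classes under 1000 bp and lower in the wider ones. Where RNAPol2 was under 400 bp wide, median folds were 4.75 for RNAPol2, 7.095 for YAP and 18.77 for TEAD. From 400 to under 1000 bp the medians were 6.365, 7.06 and 19.735 in the same order, and from 1000 to under 5000 bp 12.9, 6.39 and 18.57. Where RNAPol2 was 5000 bp or wider, they were 40.6 for RNAPol2, 5.995 for YAP and 17.05 for TEAD. The YAP median was thus lower at the broad polymerase domains. Of these 102 YTP peaks 81 lay on an RNAPol2 peak that also overlapped Myc, and YTP peaks of that kind had a lower YAP median at large (5.62 against 7.13). RNAPol2 width and sharing with Myc were not taken apart here.

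Although no YTP peak overlapped Myc, many had Myc nearby. The nearest Myc peak lay a median of 17052 bp from the edge of a YTP peak, with quartiles of 3154 and 51147 bp, against a median of 54769 bp over the 4235 YT peaks on chromosomes with a Myc peak. Within 1000 bp of a Myc peak were 351 YTP peaks, or 16.9% (15.3 to 18.6), against 3.42% of YT peaks (2.92 to 4.01). Of all 10293 YAP peaks, 569 or 5.53% lay within 1000 bp of a Myc peak without overlapping it. That share is not a like one. Its denominator includes YAP peaks that overlap Myc, which could not count, and 351 of the 569 were the YTP peaks themselves.

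At 10000 bp the shares were 40.1% of YTP peaks (38.0 to 42.2) and 16.9% of YT peaks (15.8 to 18.1). At 100000 bp they were 87.9% and 65.4%. YTP peaks thus stood nearer to Myc at each of these distances. Of the Myc peaks of the whole list 88.2% overlapped RNAPol2, and the rule requires RNAPol2, so nearness to polymerase and nearness to Myc cannot be told apart here. A Myc signal under the calling threshold of the shallowest library also cannot be told apart from no Myc.

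**Figure D5:**
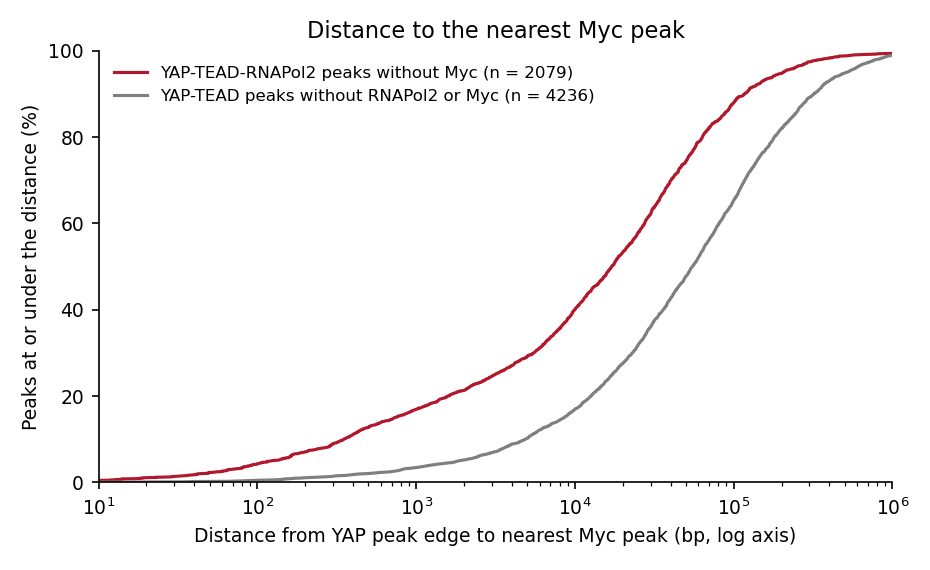
Cumulative percentage of peaks (vertical axis) by distance from the edge of the YAP peak to the nearest Myc peak (horizontal axis, bp, log axis), for YAP-TEAD-RNAPol2 peaks without Myc (red) and YAP-TEAD peaks without RNAPol2 or Myc (grey). The red line lies above the grey one, at 16.9% against 3.42% at 1000 bp and 40.1% against 16.9% at 10000 bp; 23 red peaks fall outside the range drawn.

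A minority of YTP peaks shared their RNAPol2 peak with Myc. At 313 of the 2079, or 15.1% (13.6 to 16.7), the RNAPol2 peak also overlapped a Myc peak elsewhere along its length, while 23.6% of all RNAPol2 peaks overlapped Myc. The rule itself keeps this share low where RNAPol2 is narrow: it was 2 of 548 YTP peaks with RNAPol2 under 400 bp, 36 of 952 from 400 to under 1000 bp, 194 of 477 from 1000 to under 5000 bp and 81 of 102 at 5000 bp or more. Under other definitions of overlap and strength the share ran from 3.24%, with no Myc peak allowed within 1000 bp, to 26.5%, with the YAP summit required inside the other peaks.

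The 313 YTP peaks on a polymerase peak shared with Myc differed from the remaining 1766 in the median height of each factor. RNAPol2 had a median fold of 21.8 (quartiles 12.9 and 38.1) at the shared peaks, against 5.93 (4.75 and 8.24) at the others, and a median width of 2195 bp against 531 bp. YAP was lower at the shared peaks, with a median fold of 5.62 against 7.13, and TEAD was lower as well, 14.6 against 19.5. YAP peaks were also narrower there, with a median width of 296 bp against 374 bp. The rule leaves out YAP peaks wide enough to reach the Myc peak nearby, and YAP width and fold went together at YTP peaks (rho 0.55). The part of the rule in the lower YAP height was not tested. The control level had the same median in both, 1.21 times its lowest.

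Distances between these groups follow in part from how they were split: a Myc peak on the same RNAPol2 peak sets the nearness to Myc, and wider RNAPol2 peaks leave room for more distant summits. At the shared peaks the YAP summit lay a median of 721 bp from the RNAPol2 summit and 88 bp from the TEAD summit, against 124 bp and 37 bp at the others. The Myc peak lay a median of 286 bp from the YAP peak, and 82.1% of the shared peaks had Myc within 1000 bp (77.5 to 86.0), against 5.32% of the others (4.37 to 6.47).

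RNAPol2 folds at the 10 highest YAP peaks of the class ran from 4.28 to 20.51, on both sides of the class median of 6.47. The first, at chr9:67055764-67056858, had a YAP fold of 35.93 over a TEAD fold of 84.17 and an RNAPol2 fold of 18.05, with pileups of 141, 311 and 92. Its YAP summit lay 20 bp from the TEAD summit and 97 bp from the RNAPol2 summit, and the nearest Myc peak was 102990 bp away. A second on the same chromosome, chr9:69738763-69739449, had a YAP fold of 34.43 and a TEAD fold of 71.1, and its RNAPol2 fold was 6.1. Both are thus far from Myc, and the second has polymerase near the median of the class.

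Several of the next had RNAPol2 under the median of the class. At chr1:36073946-36074452 the YAP fold was 33.69 and the TEAD fold 91.31, over an RNAPol2 peak of 254 bp and a fold of 5.86. At chr5:93241812-93242598 the folds were 31.82, 76.36 and 6.07. At chr4:54890224-54890695 they were 28.08, 77.36 and 4.28. These 3 regions stand high in the YAP and TEAD lists and below the median of the RNAPol2 peaks of the class.

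The strongest polymerase among the 10 highest YAP peaks was at chr1:134230265-134231080, where YAP stood at 31.2, TEAD at 73.49 and RNAPol2, whose peak ran over 4650 bp, at 20.51. The remaining 4 were chr14:47136891-47137328, chr11:95843602-95844306, chr9:99032293-99032971 and chr7:73510562-73511183, with YAP folds of 31.64, 30.8, 28.65 and 28.25 and RNAPol2 folds of 9.63, 7.88, 8.48 and 11.3. At 9 of the 10 the YAP summit was under 30 bp from the TEAD summit, the exception being chr5:93241812-93242598 at 61 bp. No RNAPol2 peak of these 10 was shared with Myc, and the nearest Myc peak of any of them, at chr7:73510562-73511183, was 3757 bp away.

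The highest TEAD folds showed 2 kinds of region. At chr19:8777564-8777806 and chr19:8778120-8778351, which share 1 TEAD peak and 1 RNAPol2 peak, TEAD reached 99.59 and RNAPol2 41.78, but the YAP folds were 5.59 and 5.27 and the TEAD summit lay 636 and 1132 bp away. The TEAD height there therefore belongs to a summit at some distance from these YAP peaks. At chr14:47136891-47137328, chr13:19682874-19683390 and the region on chromosome 1 given above, TEAD folds were 94.17, 91.63 and 91.31, and the YAP folds were 31.64, 26.52 and 33.69 with TEAD summits within 22 bp.

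Of the 5 YTP peaks with the highest RNAPol2 folds 4 lay below the YAP median of the class, and all 5 lay on polymerase peaks shared with Myc. At chr5:143663109-143663376 RNAPol2 reached 77.63 over 10855 bp, with a YAP fold of 5.48 and a TEAD fold of 5.12. At chr19:5804499-5804728 RNAPol2 reached 77.56 over 13719 bp, with folds of 5.59 and 7.58. These YAP summits lay 4937 and 1967 bp from the polymerase summit, so that the height was measured elsewhere in the domain.

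The others were chr7:135109919-135110383 with an RNAPol2 fold of 74.72, and chr19:5844817-5845039 and chr19:5850145-5850432, which share a domain of 19569 bp with a fold of 74.16. Their YAP folds were 5.61, 6.1 and 8.68. The last of them was the only one of the 5 above the YAP median of the class.

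Across the edge of the Myc criterion RNAPol2 medians were alike, and YAP and TEAD medians were lower on the YTP side. Within 100 bp of a Myc peak were 90 YTP peaks, where median folds were 5.54 (YAP), 12.7 (TEAD) and 14.8 (RNAPol2). Just outside, 43 YMTP peaks shared under 50 bp with their Myc peak, and their medians were 6.12, 15.6 and 14.9. The YTP peaks nearest to Myc were chr7:132724233-132724477 and chr6:114872021-114872232, which abut a Myc peak, chr2:33609602-33609827 and chr5:139229756-139229964 at 2 bp, and chr2:155050582-155050872 at 4 bp. Their YAP folds were 5.15, 5.42, 5.02, 4.59 and 5.74, all below the median of the class. Their YAP widths of 245, 212, 226, 209 and 291 bp were also below the class median of 361 bp. At this edge a wider YAP peak would overlap Myc and leave the class, and the part of this in the lower YAP folds was not tested.

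The RNAPol2 and TEAD criteria had few borderline cases. Under 50 bp of RNAPol2 overlap was found at 39 YTP peaks, with median folds of 5.86 for YAP and 14.6 for TEAD, and 61 YT peaks had RNAPol2 within 100 bp, with medians of 5.81 and 13.3. Under 50 bp of TEAD overlap was found at 6 YTP peaks.

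YTP peaks tended to lie near other YAP peaks. Another YAP peak was within 10000 bp of 39.5% of them (37.5 to 41.7), against 42.3% of YMTP peaks (40.5 to 44.2), 25.2% of YT peaks (23.9 to 26.5) and 33.1% of all YAP peaks. The median distance to the next YAP peak was 18696 bp at YTP peaks, 15600 bp at YMTP peaks and 34103 bp at YT peaks. The nearest YAP peak was another YTP peak in 31.5% of cases (29.5 to 33.5), a YMTP peak in 30.4% and a YT peak in 29.7%, where these classes make up 20.2%, 26.5% and 41.2% of the list. A share of the own class above that of the list was not particular to YTP peaks. It was 41.9% at YMTP peaks (40.1 to 43.8) and 53.9% at YT peaks (52.4 to 55.4).

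Of the 2079 YTP peaks 136 shared their RNAPol2 peak with another YTP peak, and 88 their TEAD peak. Sharing with YAP peaks of other classes was not counted. The YTP peaks matched 2006 RNAPol2 peaks, of which 1943 held 1 YTP peak, 57 held 2 and 6 held 3 or more. They matched 2035 TEAD peaks, of which 44 held more than 1 YTP peak. The RNAPol2 peak with the most, at chr9:102617410-102640334, was 22925 bp wide with a fold of 58.39. It held 6 YTP peaks with YAP folds of 5.52 to 24.84, among 7 YAP, 15 TEAD and 4 Myc peaks.

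The widest RNAPol2 peak under a YTP peak, chr9:66864795-66898118 at 33324 bp, held 4 YTP peaks among 5 YAP, 9 TEAD and 4 Myc peaks. A further 3 domains, each with 3 YTP peaks, were chr3:145306935-145321344, chr13:31895160-31912213 and chr15:11756236-11765493, with RNAPol2 folds of 69.41, 40.6 and 16.93. All 5 of these domains also held Myc peaks and 1 further YAP peak.

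All but 1 of the YTP peaks lay on the 19 autosomes and X, where their share of the YAP peaks ran from 13.5% to 26.7% with a median of 21.5%. The lowest was chromosome 15, with 196 of 1457 YAP peaks (11.8 to 15.3), against 21.3% of the YAP peaks elsewhere (20.5 to 22.2). On that chromosome 19.5% of YAP peaks had no TEAD peak, against 6.60% elsewhere. Counted among YAP-TEAD peaks without Myc alone, the share with RNAPol2 was 28.0% on chromosome 15 (24.8 to 31.4) and 33.5% elsewhere (32.3 to 34.8). By that count chromosome 15 was not the lowest, since chromosome 18 had 27.2% and chromosome 16 had 27.3%.

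The control level at YTP peaks was a median of 1.71 times its lowest on chromosome 15, the highest of any of these chromosomes, and the median YAP fold at YTP peaks there was 5.845, the lowest. The part of the control level in the low share was not tested. Chromosome 7 had the highest share, 123 of 461 YAP peaks or 26.7% (22.8 to 30.9), with a control level at its floor (1.00) and a median YAP fold of 6.86.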

How the data were processed

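YAP, TEAD, RNAPol2 and Myc ChIP-seq peak lists, 1 sample each, were used as deposited, and samples were grouped by title. BWA 0.6.2 and SAMtools, with MACS2 2.0.9 and build mm9, are named in the processing notes of the submitters. Per the file headers, each ChIP library was called by the authors on its own in narrow mode, with a p-value cutoff of 1e-05 and at most 2 tags kept per position, against the same control library, and the larger library was scaled to the smaller. The deposited pileup is the ChIP signal at the summit, and the deposited −log10 p- and q-values measure it against the background the caller estimated. The deposited fold divides the pileup by that background. The authors' caller used control windows of 1000 and 10000 bp. At YTP peaks the lower quartile of the YAP control level was 1.001 times its lowest. The background there was thus a common floor, and the folds at the floor need not come from these windows. Positions are 1-based.

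Overlap was at least 1 bp. Where a YAP peak overlapped 2 peaks of a list, the one with the nearer summit was matched. Distances run from edge to edge, with 1 bp for abutting peaks. The control level is pileup over fold enrichment. Alternatives were a −log10 q of at least 10, the stronger 50% of the Myc or RNAPol2 list, overlap of 50% of the shorter peak, the YAP summit inside the other peaks, no Myc within 1000 bp, no chromosome 15, and pileup as height. Regions named were the 10 highest by YAP fold, the 5 highest by TEAD and by RNAPol2 fold, the 5 nearest to Myc and the 5 RNAPol2 peaks with most members. The regions and measures were chosen with earlier results of these data known. Motifs and nearest genes, which need an mm9 genome, were not analysed here. Python 3.11.15, numpy 2.4.6, pandas 2.3.3, scipy 1.17.1 and matplotlib 3.10.9 were used, and the routines were tested on simulated data.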

Additional observations from a re-analysis of the deposited data

How the results depend on the processing

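Of 52 recomputed values 26 stayed within the interval of the reported one and 26 moved beyond it; no ratio crossed 1. At a −log10 q of at least 10, the YTP share of YAP peaks was 24.6%, the YAP ratio to YT peaks 1.13, the RNAPol2 ratio to YMTP peaks 0.514, the share on a polymerase peak shared with Myc 8.48% and the YAP to TEAD summit distance 31 bp. With the stronger 50% of Myc peaks, the YTP share was 33.5%, the RNAPol2 ratio 0.317 and the share on a peak shared with Myc 7.06%. With the stronger 50% of RNAPol2 peaks, these were 12.8%, 0.519 and 23.0%, and the YAP to RNAPol2 distance was 166 bp. With overlap of 50% of the shorter peak, the RNAPol2 ratio was 0.481 and the share on a peak shared with Myc 22.8%, and with the YAP summit inside the other peaks 0.473 and 26.5%. Without Myc within 1000 bp, the YTP share was 16.8%, the YAP ratio 1.14, the RNAPol2 ratio 0.424, the share on a peak shared with Myc 3.24%, and the summit distances 37 bp to TEAD and 130 bp to RNAPol2. Without chromosome 15, the YTP share was 21.3% and the RNAPol2 ratio 0.459. For pileup, the YAP and TEAD ratios were 1.17 and 1.29. Thresholds and overlap criteria change by construction which peaks count as present, and other causes were not tested. The share on a polymerase peak shared with Myc, between 3.24% and 26.5%, moved the most in proportion. No paired analysis was possible because there is 1 sample per antibody. The Myc library was the shallowest, and Myc below its calling threshold cannot be told apart from no Myc at YTP peaks. No summit-level read data or replicates were used here, so heights carry no replicate error.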
